A study of Homo sapiens with 6 samples.

Results

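The late response of A375 cells to vemurafenib, taken as the change between vehicle and 18 h of treatment that 2 related cell lines shared, was described gene by gene on 4 of the 6 arrays of the series. A375 is a human melanoma cell line with an activated BRAF kinase. Its EIF4B gene, which encodes the translation initiation cofactor eIF4B, had been knocked out by CRISPR in all cells used here. Lentiviral transduction then gave a line that carries LacZ (KO/LacZ, called the knockout line) and a line that carries wild-type eIF4B (KO/eIF4B, called the rescued line), so no array holds A375 cells with an untouched EIF4B gene. Each line received DMSO vehicle, or vemurafenib at 10 µM over 6 h or over 18 h, with 1 array per combination. For every gene the 18 h array was set against the vehicle array of the same line, which gave 2 paired differences per gene with the line as a block. How long vehicle cells stood before harvest is not labelled, so time in culture and drug cannot be told apart. The labels name no separate cultures either, and p-values therefore measure only the spread between these arrays, whose number limits the precision. The labels also do not say whether either line was derived from a single clone.

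Vemurafenib occupies the ATP site of mutant BRAF and lowers the signal from BRAF through the kinases MEK and ERK. ERK drives immediate early transcription factors, D-type cyclin and MYC, and it also induces its own inhibitors, the DUSP phosphatases and the Sprouty proteins, which makes their mRNAs a common readout of pathway output. Loss of the signal in BRAF-mutant melanoma cells is known to be followed by arrest in G1 through the retinoblastoma proteins and E2F factors, and by changes in the pigment lineage factor MITF and in neural crest genes.

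Levels are given as log2 of the deposited intensity, first for the knockout line and then for the rescued line, and a change is the mean over both lines of 18 h minus vehicle. A gene was called when its adjusted p (limma, Benjamini-Hochberg over 13506 genes) was below 0.05. The files give no detection call per probe set, so a level below 5, the filter on the mean, was not told apart from background. A gene that is this dim in one group passed the filter only through the other, so its change is the difference of the measured values and not an exact fold. Array medians lay between 5.196 and 5.221. The probe set of EIF4B read 8.40 and 10.07 under vehicle and 8.53 and 10.28 at 18 h, lower in the knockout line at both times, and its change of 0.17 (SE 0.07, limma adjusted p = 0.083) was not called. The first principal component held 73.9% of the variance and ordered the arrays by treatment, with vehicle at -33.0 and -34.8, 6 h at -2.09 and -1.77, and 18 h at 40.2 and 31.5. Pigment cell identity was mixed at the mRNA level: SOX10 (10.45 and 10.57 under vehicle) and MITF (8.50 and 8.10) were well measured, while PMEL read 5.64 and 5.80 and MLANA stayed below the filter with a mean of 4.88.

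At 18 h 3797 genes were higher (28.1% of those tested) and 3150 were lower (23.3%), so 51.4% of genes were called in all. With this background, a list of genes says something beyond the general response only where its share in one direction lies far from these percentages. Fewer genes were called over all when an array was left out, so list counts given without an array do not compare with these percentages. Of the called genes 3454, or 49.7%, changed by less than 0.5 log2 units. A change of at least 1 log2 unit, which is 2-fold, in the same direction in each line was found for 495 higher genes (3.67%) and 355 lower genes (2.63%). The changes of the 2 lines, which share no array, correlated across all genes tested with Pearson's r of 0.936 and Spearman's rho of 0.894, and 84.2% had the same sign. Genes are not independent replicates and the arrays were normalized together, so these values are a description. The difference between the lines in their change had an SD of 0.225 log2 units over genes. Without the vehicle array of the knockout line the calls fell to 2464 higher and 1846 lower, and without that of the rescued line the lower calls fell to 2082.

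**Figure D1:**
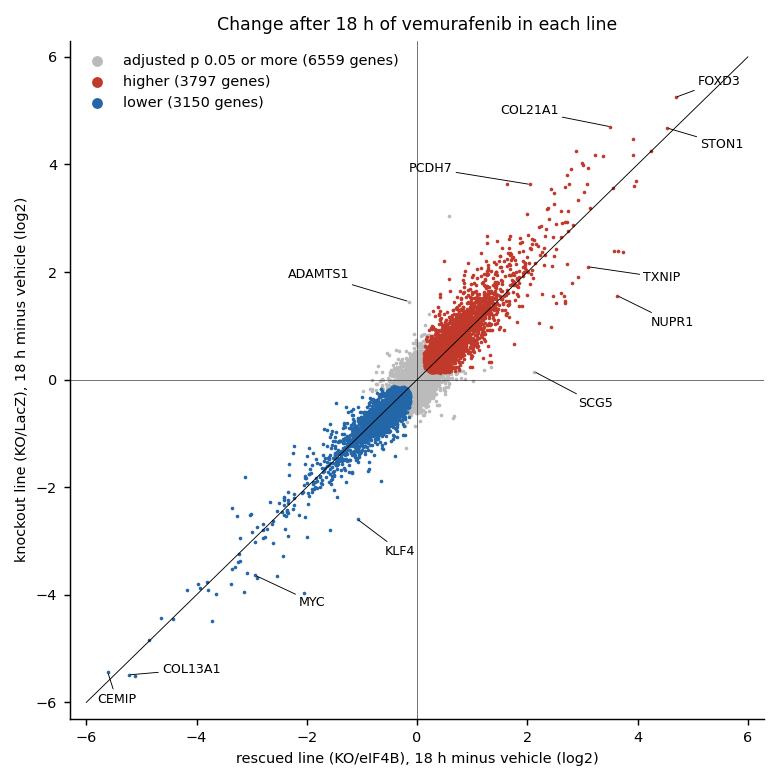
Change at 18 h against vehicle for each of the 13506 genes tested, with the rescued line on the horizontal axis and the knockout line on the vertical axis, both in log2 units; each point is 1 gene, coloured by its limma call, and the diagonal marks equal change. The points lie along the diagonal from CEMIP and COL13A1 to FOXD3 and STON1, while NUPR1, PCDH7, KLF4, SCG5 and ADAMTS1 stand off it.

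Among the genes that fell most were secreted and surface proteins of invasive melanoma cells as well as ERK targets. CEMIP, a hyaluronan-degrading protein, read 9.77 and 9.90 under vehicle and 4.33 and 4.29 at 18 h. Both treated arrays were near the bottom of the scale, and the measured log2 change was -5.52 (SE 0.17, limma adjusted p = 0.00014). COL13A1, a transmembrane collagen, went from 8.53 and 8.92 to 3.04 and 3.69 (log2 change -5.36 (SE 0.10, limma adjusted p = 8.1e-05)). The other probe sets of CEMIP and COL13A1 moved the same way by less, -0.58 for CEMIP and -0.74 to -0.59 for COL13A1. The proteoglycan endocan, ESM1, fell from 8.81 and 8.01 to 3.98 and 3.16, and the cytokine IL24 from 8.61 and 9.65 to 4.19 and 5.00. In each of these 4 genes both 18 h arrays lay far below both vehicle arrays. Most genes named here and below were chosen by the size of this change. Groups of arrays that do not overlap follow from that choice and add no support.

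Several of the strongest falls came mainly after 6 h. NT5E, the ectoenzyme CD73 that makes adenosine from AMP, read 8.14 and 8.44 under vehicle, 7.49 and 8.07 at 6 h and 4.90 and 5.20 at 18 h. Its change was -3.24 (SE 0.09, limma adjusted p = 0.00011), and its other 3 probe sets fell as well, by values from -3.54 to -2.85. The adhesion molecule neurotrimin, NTM, read 8.50 and 8.54, then 7.95 and 8.09, then 4.56 and 5.41; its other 2 probe sets gave -2.44 and 0.05 and so did not move together. CYB5R2, a cytochrome b5 reductase, read 8.32 and 8.15, 7.61 and 7.52 and 4.83 and 4.85. Integrin beta 3, ITGB3, read 7.68 and 7.51, 6.73 and 6.49 and 4.10 and 4.44. In these 4 genes both 6 h arrays were closer to vehicle than to 18 h. By contrast the lipopolysaccharide receptor TLR4 read 8.93 and 8.98, 5.29 and 5.90 and 5.12 and 5.61, and the phosphate transporter SLC20A1 read 11.93 and 11.96, 9.16 and 9.33 and 8.99 and 9.16, with the 6 h arrays already near the 18 h level. SHISA2 fell by 2.87 at 18 h and read 6.70 and 5.35 there against 5.85 and 5.30 at 6 h, so its 18 h arrays were no lower than those at 6 h. FST, the antagonist of activin, fell by 3.29, as did AMIGO2, an adhesion protein (-3.10). SERPIND1, UBASH3B and ROR1, a secreted thrombin inhibitor, a phosphatase and an orphan receptor kinase, fell (-3.08, -2.97 and -2.91).

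FOXD3, SOX2, SP8 and SOX4, which are transcription factors, were among the genes that rose most. FOXD3, a neural crest factor, read 3.50 and 3.64 under vehicle and 8.74 and 8.33 at 18 h (log2 change 4.97 (SE 0.29, limma adjusted p = 0.00036)). Its vehicle arrays were at the bottom of the scale. SOX2, a factor of pluripotent and neural stem cells, read 6.39 and 6.34 under vehicle and 10.58 and 10.26 at 18 h (log2 change 4.05 (SE 0.10, limma adjusted p = 9.3e-05)). The zinc-finger factor SP8 rose from 4.46 and 4.26 to 8.16 and 8.23, and SOX4 from 7.69 and 7.68 to 11.18 and 10.70. The ranges of vehicle and 18 h arrays did not overlap in any of these 4 genes, which follows from their choice by size of change. Of the other 4 probe sets of SOX4, 3 rose and 1 gave -0.05, and the other probe set of SP8 gave 0.10.

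Others among them encode membrane, cytoskeletal and matrix proteins. CD24, a small surface glycoprotein, read 6.57 and 6.27 under vehicle and 10.83 and 10.52 at 18 h (log2 change 4.25 (SE 0.16, limma adjusted p = 0.00017)), and its other 5 probe sets rose by 2.91 to 4.45. STON1, an endocytic adaptor, rose from 4.23 and 3.93 to 8.90 and 8.47, and the melanocortin receptor MC4R from 4.05 and 4.06 to 8.21 and 7.28. NIBAN1, a stress-responsive protein, read 7.64 and 8.68 and then 11.66 and 11.67, so the lines were apart under vehicle and level at 18 h. MYLK, the myosin light chain kinase, did likewise, with 6.53 and 7.10 and then 10.17 and 10.19. ANK3, the membrane-skeleton adaptor ankyrin G, rose by 3.35 (SE 0.27, limma adjusted p = 0.00068), and the guanine exchange factor DOCK8 by 3.50 (SE 0.23, limma adjusted p = 0.00043). The inhibitor of bHLH factors ID2 rose by 3.13, the water and glycerol channel AQP3 by 2.87, and the mitochondrial folate enzyme ALDH1L2 by 2.97. PGM5 rose by 3.76 and was higher in the knockout line at both times, 5.65 and 4.28 under vehicle and 9.81 and 7.66 at 18 h.

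**Figure D2:**
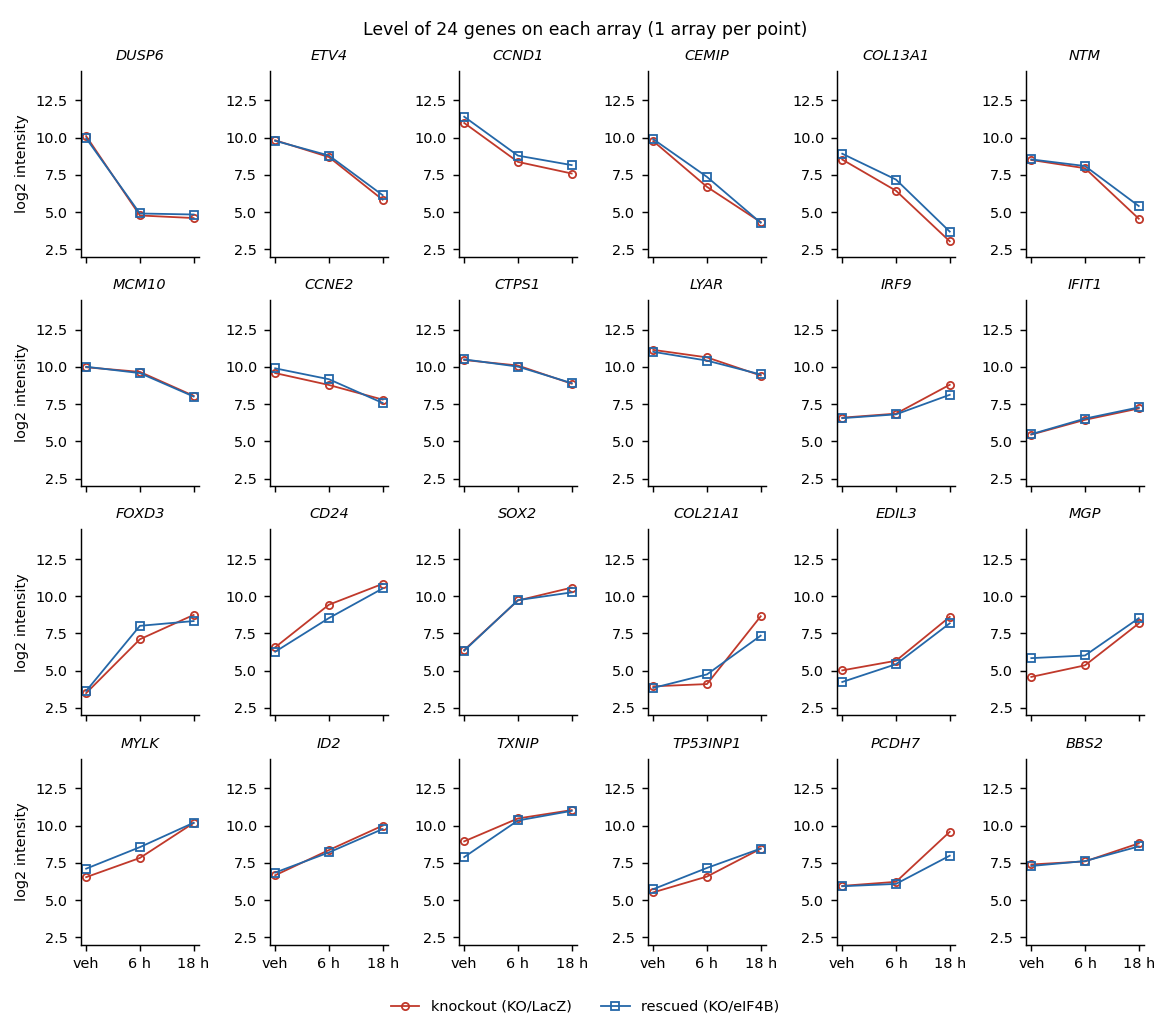
Level of 24 genes on each of the 6 arrays, log2 intensity on the vertical axis against vehicle, 6 h and 18 h on the horizontal axis; circles are the knockout line, squares the rescued line and each point is 1 array, with no error bar because there was 1 array per combination. DUSP6 had fallen fully by 6 h, whereas ETV4, NTM, MCM10, IRF9 and COL21A1 moved mostly between 6 h and 18 h, and PCDH7 separated the lines at 18 h.

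The kinase cascade itself moved by small amounts at the mRNA level. Of 20 genes for RAS proteins, exchange factors, RAF, MEK and ERK kinases, 12 were tested, 6 rose and 4 fell, and none reached 1 log2 unit in each line. Leaving out the vehicle array of the rescued line left 3 higher, and leaving out that of the knockout line left 2 lower. The exchange factor SOS2 rose by 0.83 (SE 0.12, limma adjusted p = 0.0032) and SOS1 by 0.53 (SE 0.11, limma adjusted p = 0.012); the call of SOS1 was lost without the vehicle array of the rescued line (limma adjusted p = 0.0752) or the 18 h array of the knockout line (0.0785). The RAS-inactivating protein RASA2 fell by 0.72. Of the 2 MEK genes MAP2K1 changed by -0.49 and MAP2K2 by 0.45, in opposite directions, and 1 of the other probe sets of MAP2K2 gave -0.01. MAPK3, the ERK1 gene, rose by 0.33, a call lost without either array of the rescued line (limma adjusted p = 0.141 without vehicle and 0.0642 without 18 h), and ARAF had a value of -0.01 (limma adjusted p = 0.93). ARAF was called lower with the mean of its probe sets (-0.25, limma adjusted p = 0.017).

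Genes induced by the cascade were low. Of 30 ERK-induced genes 29 were tested and 27 fell (93.1% against a background of 23.3%), 0 rose, and the median change was -2.41, against 0.00872 over all genes. Those that did not pass were SPRY1 (-0.17), at 5.68 and 5.48 under vehicle, and SPRED3 (-0.17). With the mean of all its probe sets SPRY1 was called lower (-1.05, limma adjusted p = 0.000489). Among feedback inhibitors DUSP6, the ERK phosphatase, read 10.10 and 9.96 under vehicle, 4.77 and 4.91 at 6 h and 4.60 and 4.84 at 18 h, a log2 change of -5.31 (SE 0.10, limma adjusted p = 8.1e-05). SPRY2, which restrains RAS activation, read 10.70 and 10.42, 6.93 and 6.85 and 6.25 and 6.00. Among the ETS factors ETV5 was at 9.09 and 9.14, 5.43 and 5.83 and 5.18 and 4.97, while ETV4 was at 9.82 and 9.79, 8.70 and 8.80 and 5.83 and 6.14, so ETV4 fell mostly after 6 h and ETV5 mostly before. FOSL1, a subunit of AP-1, read 10.26 and 10.59, 7.71 and 8.03 and 6.74 and 7.24, and the survival gene IER3 read 11.37 and 11.17, 7.55 and 7.64 and 7.61 and 7.36. Cyclin D1, CCND1, fell from 10.98 and 11.40 to 7.59 and 8.16 (log2 change -3.32 (SE 0.07, limma adjusted p = 8.1e-05)). In none of the genes given here on both vehicle and 18 h arrays did the 2 groups overlap, as their choice by size of change entails. PLAUR, the urokinase receptor, fell by 2.40.

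Receptor tyrosine kinases and their ligands moved in both directions. Of 31 tested 9 rose (29%) and 11 fell (35.5%), with a median of -0.13. Without the vehicle or the 18 h array of the knockout line, or without the line as a block, 5 fell. KITLG, the KIT ligand, rose from 6.46 and 6.29 to 9.27 and 8.62 (log2 change 2.57 (SE 0.15, limma adjusted p = 0.00036)) and the fibroblast growth factor receptor FGFR2 from 5.04 and 4.87 to 7.49 and 6.54. TGFA and HBEGF, ligands of the EGF receptor, changed by -2.77 (SE 0.13, limma adjusted p = 0.00023) and -1.56 (SE 0.13, limma adjusted p = 0.00076). Another ligand, EGF, was too dim on average to be tested and read 3.92 and 4.39 under vehicle and 5.37 and 5.83 at 18 h. EGFR itself had -0.13, AXL -0.13 and IGF1R -0.21, and none of these passed. EGFR was called lower with the mean of all probe sets (-0.44, limma adjusted p = 0.00397) and with an offset of 16 (-0.68, 6e-04), and IGF1R with the mean of all probe sets (-0.22, limma adjusted p = 0.0324). ERBB3 rose by 1.32, ERBB2 by 1.08, and MET fell by 0.77. Of 13 ephrin receptors and ephrins 6 rose, among them EFNA1 (1.29) and EPHA3 (1.28), and 4 fell, among them the ERK target EPHA2 (-2.41) and EPHB1 (-1.44), with 2 lower when a mean of at least 6 was required.

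Of 27 genes of the insulin and PI3K pathway and its FOXO factors 13 rose (48.1%, background 28.1%) and 4 fell, with a median of 0.13. FOXO3, a factor held out of the nucleus by AKT, rose by 1.27 (SE 0.09, limma adjusted p = 0.00049), and CITED2 by 1.79 (SE 0.07, limma adjusted p = 0.00018), although 1 of the other probe sets of CITED2 gave -0.04. DEPTOR, an inhibitor of mTOR, rose by 0.99. The pseudokinase TRIB2, which restrains FOXO factors, fell by 2.31.

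The genes that carry a cell from G1 into S phase were mostly lower, apart from the inhibitors. Of 32 cyclins, cyclin-dependent kinases, RB proteins and inhibitors 19 fell (59.4%) and 9 rose (28.1%), with a median of -0.51, and 5 rose without the line as a block. CDC25A, the phosphatase that activates CDK2, read 9.15 and 9.28 under vehicle and 7.07 and 7.21 at 18 h (log2 change -2.08 (SE 0.06, limma adjusted p = 0.00011)). Cyclin E2, CCNE2, went from 9.59 and 9.91 to 7.81 and 7.58 and CDK2 from 10.80 and 10.85 to 9.46 and 9.56. Both arrays at 18 h lay below both vehicle arrays in the 3 genes, which were chosen for their large change. On the other side the inhibitor p27, CDKN1B, rose from 9.59 and 9.47 to 10.32 and 10.17 (log2 change 0.72 (SE 0.06, limma adjusted p = 0.00073)). The inhibitor p21, CDKN1A, read 9.38 and 9.57 and 9.68 and 10.14, a change of 0.44 (SE 0.08, limma adjusted p = 0.0089) that was not called without the vehicle array of the rescued line (limma adjusted p = 0.075) or without the line as a block (0.118). The atypical cyclin CCNG2 rose 4.01-fold, and 1 of its other 4 probe sets gave -0.22. The retinoblastoma family split: RBL1 (p107), which growing cells express, fell by 1.01, RBL2 (p130), which marks resting cells, rose by 0.84, and RB1 had 0.06 (limma adjusted p = 0.57).

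Most DNA replication genes fell, and at 6 h they had hardly moved. Of 52 genes for origin licensing, fork proteins and DNA polymerases 43 were lower (82.7% against 23.3%), RFC5 was higher (0.28), and the median was -0.73. The mean over all probe sets of RFC5 was lower (-0.39, limma adjusted p = 0.00336), and its call was lost without any 1 of 3 arrays (limma adjusted p of 0.131 and 0.108 without the vehicle array of the knockout and the rescued line, and 0.0733 without the 18 h array of the knockout line), so no direction is given to it. Against the same vehicle arrays the median at 6 h was -0.000654, and 43 of the 52 were lower at 18 h than at 6 h (background 14.9%). MCM10, which helps to start the replicative helicase, read 9.98 and 10.01 under vehicle, 9.67 and 9.59 at 6 h and 8.06 and 8.01 at 18 h (log2 change -1.96 (SE 0.06, limma adjusted p = 0.00014)). CDC45, a subunit of that helicase, read 8.37 and 8.42, 8.19 and 8.28 and 6.88 and 7.09. The fork-protection genes CLSPN and TIPIN fell (-1.62 and -1.50), as did the polymerase epsilon subunit POLE2 (-1.25). In MCM10 and CDC45 the 6 h arrays sat just under the vehicle arrays and far above those at 18 h. ORC2, ORC3, ORC4 and ORC5, subunits of the origin recognition complex, lay between -0.13 and 0.11 and were not called, whereas ORC1 and ORC6 fell (-1.05 and -1.21).

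E2F factors switch on these genes at the start of S phase, and the promoters of the list members with the largest change that hold an E2F type site show what such a window looks like. RefSeq promoter windows (GRCh38.p14, from 250 bases before to 50 after the gene start) were searched on both strands for TTTCGCG or TTTGGCG; the windows covered 10857 of the genes tested, and 280 bases of each promoter shown are printed 5′ to 3′ on the gene's strand, with the match in capitals, which may read as the reverse complement.
MCM10, chr10:13161308-13161587, plus strand: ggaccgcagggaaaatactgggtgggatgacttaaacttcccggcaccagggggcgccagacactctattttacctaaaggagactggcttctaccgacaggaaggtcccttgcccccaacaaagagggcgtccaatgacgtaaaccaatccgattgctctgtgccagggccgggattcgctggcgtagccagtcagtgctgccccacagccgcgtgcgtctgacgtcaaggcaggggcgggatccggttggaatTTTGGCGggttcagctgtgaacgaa
CDC45, chr22:19479670-19479949, plus strand: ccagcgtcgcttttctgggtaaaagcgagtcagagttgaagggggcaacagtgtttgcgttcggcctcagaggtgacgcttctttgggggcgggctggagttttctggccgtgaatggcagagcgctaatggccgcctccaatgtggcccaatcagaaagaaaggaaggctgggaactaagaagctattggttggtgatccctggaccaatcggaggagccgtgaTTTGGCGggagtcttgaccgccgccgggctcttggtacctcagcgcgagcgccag
A match was present in 15 of the 45 replication genes with a window (33.3%), in 5.06% of the windows of all genes tested and in 3.22% of all windows. Of the 15 genes with the match 15 were lower (median -0.945), and of the 30 without it 22 were lower (median -0.586). Over all 549 genes tested that hold it, 30.4% were lower and 24.6% higher. Over all 10857 genes tested with a window 23.8% were lower and 29.1% higher, and the difference was not tested. A match is a string of letters in a window and was not tested as a binding site.

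Nucleotide synthesis and mitosis genes each held more lower than higher members. Of 27 nucleotide and folate genes 18 fell (66.7%) and 3 rose, with a median of -0.42. CTPS1, which makes CTP, read 10.47 and 10.51 under vehicle and 8.88 and 8.92 at 18 h (log2 change -1.59 (SE 0.06, limma adjusted p = 0.0002)), its isoenzyme CTPS2 rose by 0.59, and RRM2, the ribonucleotide reductase subunit of S phase, fell by 0.99. Of 53 spindle and mitosis genes 25 fell (47.2%), 5 rose, and 23 were not called, with a median of -0.20. Without the vehicle array of the knockout or the rescued line 13 and 16 of the mitosis genes fell. The 5 higher became 0 without the vehicle array of the rescued line, 3 without the 18 h array of the knockout line, and 1 without either other array or without the line as a block. CDCA5 (sororin, a cohesion protein) fell by 1.05, as did cyclin A2, CCNA2 (-0.83). CDK1 had -0.13 and BUB1 -0.12, and these did not pass.

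MYC drives cell growth through ribosome production, and its own mRNA was low at 18 h. It read 9.27 and 9.18 under vehicle, 7.04 and 7.43 at 6 h and 5.64 and 6.24 at 18 h (log2 change -3.29 (SE 0.17, limma adjusted p = 0.00028)). Of its 12 partners and antagonists that were tested, itself included, 3 fell and 2 rose, MAX by -0.40 and the antagonist MXD3 by 0.74. The rise of the antagonist MNT (0.49) was lost with the mean of its probe sets (0.02, limma adjusted p = 0.79), and its call was also lost without the vehicle array of the knockout line (0.0678). In this list 5 genes fell without the 18 h array of the rescued line, and 1 rose without the vehicle array of the knockout line. The call of MAX was lost without the vehicle array of the rescued line (limma adjusted p = 0.0542).

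Most genes of RNA polymerase I and ribosome assembly fell. Of 74 tested 65 were lower (87.8%), 0 were higher, and the median was -0.60, against -0.13 at 6 h. LYAR, a nucleolar protein, read 11.15 and 11.02 under vehicle, 10.64 and 10.43 at 6 h and 9.43 and 9.50 at 18 h (log2 change -1.62 (SE 0.09, limma adjusted p = 0.0003)). MRTO4 and PNO1, assembly factors of the large and the small subunit, fell (-1.35 and -1.26). Both 18 h arrays of LYAR lay more than 1 log2 unit under the vehicle arrays. The abundant nucleolar proteins FBL (-0.13) and NPM1 (-0.09) and the polymerase I factor UBTF (-0.06) did not pass. UBTF was called lower with the mean of its probe sets (-0.18, limma adjusted p = 0.0414). MYC binds the E-box CACGTG, and MRTO4 and PNO1 are shown as the most changed members that hold this word.
MRTO4, chr1:19251555-19251834, plus strand: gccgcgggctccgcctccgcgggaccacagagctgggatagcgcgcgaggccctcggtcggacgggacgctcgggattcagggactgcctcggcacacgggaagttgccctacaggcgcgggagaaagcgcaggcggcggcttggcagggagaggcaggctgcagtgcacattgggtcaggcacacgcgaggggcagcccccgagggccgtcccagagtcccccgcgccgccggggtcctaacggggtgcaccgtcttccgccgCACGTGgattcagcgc
PNO1, chr2:68157638-68157917, plus strand: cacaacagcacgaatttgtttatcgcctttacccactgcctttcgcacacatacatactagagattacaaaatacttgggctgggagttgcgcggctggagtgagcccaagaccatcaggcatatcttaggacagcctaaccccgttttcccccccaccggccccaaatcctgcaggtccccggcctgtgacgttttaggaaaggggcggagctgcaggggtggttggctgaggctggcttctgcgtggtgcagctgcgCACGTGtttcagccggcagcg
CACGTG was found in 23 of 66 windows of the list (34.8%), against 10.1% of the windows of all genes tested and 7.43% of all windows. The ETS type word CCGGAAG was found in 30 of the 66 (45.5%), against 18.3% and 10.7%. Of the 23 genes with the E-box 22 were lower (median -0.655), and of the 43 without it 35 were lower (median -0.509).

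Other parts of the growth machinery held more lower than higher genes. Of 43 nuclear pore and transport genes 28 fell (65.1%) with a median of -0.45, led by NUP35 (-0.92). Of 28 cytosolic chaperones 19 fell (67.9%), including HSPA14 (-0.90) and PFDN2 (-0.87), while the small heat shock protein HSPB1 rose by 0.93. Mitochondrial ribosomal proteins had 31 lower of 74 (41.9%), with MRPL17 at -1.01, and proteasome subunits 12 lower of 31 (38.7%) and 0 higher, with PSME3 at -0.71. Of 14 polyamine genes 6 fell (42.9%, background 23.3%) and 2 rose (0 without the line as a block). Spermidine synthase SRM (-0.62) and AMD1 (-0.64) were among those that fell. Without the vehicle array of the knockout line the lower counts were 14 for mitochondrial ribosomal proteins, 9 for chaperones and 4 for the proteasome, and without that of the rescued line 10 for chaperones and 5 for the proteasome. Without the 18 h array of the knockout line the proteasome had fewer as well, and in each of these fits its share was near that of all genes.

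Genes that ATF4 induces when amino acids run short rose more often than they fell. Of 33 tested 16 rose (48.5%) and 2 fell, and the median was 0.49, with 0.20 in the knockout and 0.68 in the rescued line. It was 0.61 at 6 h, so this list was no higher at 18 h. Fewer rose without the 18 h array of the rescued line, a share not far above that of all genes in that fit. The lower genes numbered 6 without either array of the rescued line, 0 without the vehicle array of the knockout line, and 1 without the 18 h array of that line or without the line as a block. Asparagine synthetase, ASNS, read 9.19 and 9.35 under vehicle, 10.02 and 11.26 at 6 h and 10.64 and 12.03 at 18 h. Both treated arrays were above both vehicle arrays, and the rise was 1.45 in the knockout and 2.68 in the rescued line (mean 2.07 (SE 0.30, limma adjusted p = 0.0036)). The stress regulator NUPR1 rose from 4.95 and 5.15 to 6.51 and 8.78, PCK2, the mitochondrial PEP carboxykinase, by 2.11, and CTH, which makes cysteine, by 2.02. GDF15 and TRIB3, also known ATF4 targets, moved in opposite directions in the lines, by -0.68 and 0.67 for GDF15 and by -0.66 and 0.44 for TRIB3, and did not pass. Aminoacyl-tRNA synthetases, some of them ATF4 targets, had 7 higher and 5 lower of 17, with medians of 0.03 in the knockout and 0.56 in the rescued line. Leaving out either vehicle array or the 18 h array of the knockout line left 2 lower, and 3 were lower without the line as a block. WARS1 rose by 0.96 and SARS1 by 0.93, while FARSA fell by 0.58. The word TGATGNAA, the shared core of ATF4 and C/EBP composite sites, was held by 5 of 28 windows (17.9%), against 1.93% for all genes tested and 3.67% for all windows. Of these 5 genes 3 rose and 1 fell, and ASNS and CHAC1, which degrades glutathione, are shown as the most changed risers.
ASNS, chr7:97872379-97872658, minus strand: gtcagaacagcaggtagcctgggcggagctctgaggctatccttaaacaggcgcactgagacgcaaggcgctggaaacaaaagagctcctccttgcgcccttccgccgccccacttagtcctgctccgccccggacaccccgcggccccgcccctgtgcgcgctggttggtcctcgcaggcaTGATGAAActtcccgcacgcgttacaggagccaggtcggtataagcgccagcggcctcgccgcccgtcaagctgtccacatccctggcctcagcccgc
CHAC1, chr15:40953221-40953500, plus strand: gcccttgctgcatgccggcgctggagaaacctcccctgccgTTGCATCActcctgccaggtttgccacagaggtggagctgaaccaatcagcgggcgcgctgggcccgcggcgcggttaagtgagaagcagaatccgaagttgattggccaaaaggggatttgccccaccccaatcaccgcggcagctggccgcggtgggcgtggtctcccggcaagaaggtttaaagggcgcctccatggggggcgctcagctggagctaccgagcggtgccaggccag
CHAC1 rose by 0.89 (SE 0.22, limma adjusted p = 0.02), a call that was lost without the 18 h array of the rescued line (limma adjusted p = 0.12) or without the line as a block (0.335).

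Melanocyte and neural crest genes did not move as a block. Of 27 neural crest and stem-like genes 14 rose (51.9%) and 8 fell (29.6%), with a median of 0.27, and without the vehicle array of the knockout line 9 rose, while 5 fell without the line as a block. FOXD3, CD24 and SOX2 led the higher side, followed by MEF2C (2.02) and ZEB2 (1.66). ZEB1, which replaces ZEB2 in dedifferentiated melanoma cells, fell by 1.19, as did FOXC2 (-2.66) and ALDH1A3, a retinal dehydrogenase (-2.45). SOX10 (-0.11) and PAX3 (-0.19) did not pass. SOX10 was called lower with the mean of its probe sets (-0.23, limma adjusted p = 0.0443). MITF, the master regulator of pigment cells, read 8.50 and 8.10 under vehicle, 9.38 and 9.24 at 6 h and 9.97 and 9.88 at 18 h (log2 change 1.63 (SE 0.09, limma adjusted p = 0.00035)), with both treated times above vehicle. Of 30 pigment cell genes 20 were tested, 4 rose (20%) and 7 fell (35%). Only 2 rose without either array of the knockout line, and 4 fell without its vehicle array. Among known MITF targets GPNMB rose by 0.89, CDK2 and EDNRB fell (-1.31 and -0.86), and PMEL (-0.12) did not pass.

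Adhesion molecules of the nervous system rose more often than they fell. Of 16 cadherins and protocadherins 10 rose (62.5%, background 28.1%) and 0 fell, while 1 fell with no filter on dim genes. PCDH10 read 4.57 and 4.97 under vehicle and 8.21 and 7.73 at 18 h (log2 change 3.20 (SE 0.21, limma adjusted p = 0.00043)), and PCDH18 rose by 2.54. PCDH7 read 5.95 and 5.92 under vehicle, 6.22 and 6.08 at 6 h and 9.58 and 7.97 at 18 h, so it had hardly moved at 6 h. Of 44 axon guidance genes 17 rose (38.6%) and 9 fell (20.5%). The semaphorin SEMA3C rose 3.99-fold, the SLIT receptor ROBO1 by 1.68 and the netrin NTN4 by 1.33.

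Matrix genes moved in both directions. Of 45 proteoglycans and glycoproteins 18 rose (40%) and 8 fell (17.8%). Lumican, LUM, read 6.39 and 7.25 under vehicle and 9.06 and 9.56 at 18 h (log2 change 2.49 (SE 0.12, limma adjusted p = 0.00026)). Fibrillin 1, FBN1, read 7.38 and 6.80 and 9.55 and 8.77 (log2 change 2.07 (SE 0.08, limma adjusted p = 0.00017)). EDIL3, an integrin ligand, read 5.02 and 4.24 under vehicle, 5.67 and 5.44 at 6 h and 8.61 and 8.18 at 18 h, and the calcification inhibitor MGP read 4.58 and 5.84, 5.36 and 6.02 and 8.17 and 8.52. All 4 were chosen for their large change and had vehicle and 18 h arrays that did not overlap, and EDIL3 and MGP rose mainly after 6 h. The matricellular genes CCN1 and CCN2 fell (-1.70 and -1.15). Collagens were split, 8 higher and 4 lower of 21: COL21A1 read 3.95 and 3.85, 4.10 and 4.75 and 8.65 and 7.35, COL4A5 rose by 1.88, and the basement membrane collagen COL4A1 fell by 1.18. Of 23 integrins, laminins and fibronectin 10 fell (43.5%) and 6 rose, with 6 lower without the vehicle array of either line. ITGA1 and ITGB5 fell (-1.33 and -1.35), ITGB8 rose by 1.27, and FN1, fibronectin, changed by -1.09 (SE 0.15, limma adjusted p = 0.0032), a call that was lost without the line as a block (limma adjusted p = 0.314). Of 29 matrix proteases and inhibitors 11 fell (37.9%), among them the collagenase MMP1 (-2.86), the plasminogen activator PLAT (-1.66) and the inhibitor TIMP3 (-2.41), and 6 rose. With a mean of at least 6 required 7 fell. The higher proteases and inhibitors numbered 2 without either array of the knockout line and 3 without the vehicle array of the rescued line or without the line as a block.

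Some of these matrix genes are also markers of fibroblasts, so marker lists were read beside them. Of 11 fibroblast markers 5 were below the filter in all, 6 were tested, and LUM, DCN (1.78), ACTA2 (1.72) and PDGFRB (1.17) rose. Their summed linear signal was 633.5 and 768 under vehicle and 1464 and 1807 at 18 h. The 5 markers below the filter, COL1A2, COL3A1, PDGFRA, FAP and DPT, had mean levels of 4.72, 3.41, 4.31, 3.47 and 3.90. Of the 6 tested, COL1A1 (0.02) and THY1 (-0.09) were not called. With the mean of all its probe sets COL1A1 was called higher (0.74, limma adjusted p = 0.000339). Epithelial markers summed to 8129 and 6554 under vehicle and 6446 and 5171 at 18 h, with EPCAM and CDH1 below the filter and 6 of 12 markers not tested. Of those tested, the keratins moved apart, KRT14 by 1.45 and KRT18 by -0.78. Blood and endothelial markers summed to 512.4 and 556.2 under vehicle and 454.2 and 491.8 at 18 h, with PTPRC and CDH5 below the filter. All arrays hold cultured A375 cells, so these sums read marker mRNAs within a melanoma culture and not the shares of a mixed tissue. The part of the falling epithelial sum in the results was not tested. Fewer cells that express a marker and less of its RNA per cell cannot be told apart in bulk RNA.

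Contractile genes and targets of neighbouring pathways were mixed. Of 26 contractile genes 10 rose (38.5%, background 28.1%) and 6 fell (23.1%, background 23.3%). With the mean of all probe sets 6 rose, and fewer than 10 rose without the vehicle array of either line. ACTA2, smooth muscle actin, read 6.28 and 6.59 under vehicle and 8.04 and 8.28 at 18 h, while ACTN1, alpha-actinin, fell by 1.75. Of 25 YAP and TEAD genes 12 fell (48%) and 7 rose, with 4 higher without the vehicle array of the knockout line. The target ANKRD1 fell by 4.10, as did tissue factor F3 (-2.82) and FJX1 (-1.88), while VGLL3, a TEAD cofactor, rose by 2.77, and YAP1 itself had 0.19 and did not pass. Of 34 genes of the TGF-beta and BMP pathways 10 rose (29.4%) and 8 fell (23.5%), near the shares of all genes. The BMP-induced genes ID1, ID2 and ID3 rose by 1.37, 3.13 and 1.48 and SMAD9 3.99-fold, whereas the activin subunit INHBA fell by 2.28 and ID4 had -0.06, which did not pass. Of 33 WNT genes 5 rose (15.2%), 8 fell (24.2%) and 20 were not called. DACT1 and LGR4, modulators of the pathway, rose by 2.81 and 2.14, and the antagonist SFRP1 and the receptor FZD1 fell (-2.37 and -1.52).

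Among inflammatory genes more fell than rose, and among interferon-response genes more rose than fell. Of 40 chemokines and mediators with a probe set only 21 were tested, and of these 11 fell (52.4%) and 2 rose. The others were too dim on average, which can include genes measured under vehicle and low after treatment. The neutrophil chemokines CXCL8 and CXCL1 fell (-3.90 and -3.85), as did the pattern-recognition protein PTX3 (-2.46), while NFKBIA, the inhibitor of NF-kB, rose by 1.17. Of 43 interferon-response genes 26 rose (60.5% against 28.1%) and 7 fell, with a median of 0.37 and, at 6 h, of 0.07. Those lower numbered 2 without the vehicle array of the knockout line, 3 without either array of the rescued line or without the line as a block, and 4 with no filter. IRF9, the DNA-binding subunit of the interferon-activated complex, read 6.59 and 6.56 under vehicle, 6.86 and 6.82 at 6 h and 8.80 and 8.13 at 18 h (log2 change 1.89 (SE 0.17, limma adjusted p = 0.0009)). IFIT1, which binds foreign RNA, read 5.46 and 5.49, 6.45 and 6.53 and 7.21 and 7.28. Vehicle and 18 h arrays did not overlap in either, and both were chosen for their large change. ISG20, an exonuclease of the same list, went the other way, from 10.41 and 10.26 to 8.93 and 8.90 (log2 change -1.42 (SE 0.07, limma adjusted p = 0.00029)). The RNA sensor RIGI (0.12) was not called.

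The interferon type word, 2 copies of TTTC with any 2 bases between them, was held by 21 of 34 windows of the list (61.8%), against 2.64% for all genes tested and 3.65% for all windows. Of these 21 genes 13 rose and 4 fell, and of the 13 without it 7 rose and 2 fell. IFIT1 and ISG20, which hold the word and moved in opposite directions, are shown.
IFIT1, chr10:89392373-89392652, plus strand: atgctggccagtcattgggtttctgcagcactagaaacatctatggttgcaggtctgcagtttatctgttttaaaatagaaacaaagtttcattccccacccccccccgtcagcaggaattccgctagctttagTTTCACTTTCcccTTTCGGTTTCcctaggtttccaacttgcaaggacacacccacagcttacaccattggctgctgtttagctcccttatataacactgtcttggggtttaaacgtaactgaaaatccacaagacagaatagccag
ISG20, chr15:88638766-88639045, plus strand: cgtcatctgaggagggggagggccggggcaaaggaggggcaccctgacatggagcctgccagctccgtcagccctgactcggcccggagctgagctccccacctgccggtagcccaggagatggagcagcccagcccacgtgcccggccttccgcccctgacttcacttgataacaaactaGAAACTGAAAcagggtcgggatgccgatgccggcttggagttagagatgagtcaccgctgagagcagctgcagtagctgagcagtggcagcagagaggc
Over all 287 genes tested that hold the word 33.1% were higher, against 29.1% of all genes tested with a window. Of 29 antigen presentation genes 12 rose (41.4%, background 28.1%) and 7 fell (24.1%, background 23.3%). Fewer rose without the vehicle array of the rescued line, and fewer fell without the vehicle array of either line. The immunoproteasome subunit PSMB9 rose by 0.78 and the class I regulator NLRC5 by 0.78, while the class II loading genes HLA-DMB and HLA-DMA fell by 1.47 and 0.93.

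Genes of degradation and respiration rose more often than they fell, by small amounts. Of 59 lysosome and autophagy genes 32 rose (54.2%) and 10 fell, with a median of 0.26. Without the vehicle array of the knockout line 19 rose and 2 fell, and without that of the rescued line 18 rose and 3 fell. GABARAP, which coats autophagosomes, read 10.87 and 10.87 under vehicle and 12.08 and 12.07 at 18 h (log2 change 1.21 (SE 0.06, limma adjusted p = 0.00025)). The acid ceramidase ASAH1, a known MITF target, rose by 1.04, the sialidase NEU1 by 0.88 and the cathepsin CTSA by 0.80. Proton pump subunits did not move together, with ATP6V1A at 0.69 and ATP6V0B at -0.55. The word TCACGTG, bound by TFEB and MITF and containing the E-box CACGTG, was held by 12 of 43 windows (27.9%), against 5.7% for all genes tested and 3.82% for all windows. Of the 12 genes 8 rose, and of the 31 without it 14. NEU1 and CTSA are shown as the most changed of the 12.
NEU1, chr6:31862792-31863071, minus strand: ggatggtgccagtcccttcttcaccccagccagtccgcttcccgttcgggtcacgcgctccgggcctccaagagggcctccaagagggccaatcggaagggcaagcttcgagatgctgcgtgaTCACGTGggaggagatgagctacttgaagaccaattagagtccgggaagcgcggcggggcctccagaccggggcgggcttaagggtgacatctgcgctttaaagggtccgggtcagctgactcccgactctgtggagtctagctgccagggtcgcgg
CTSA, chr20:45891085-45891364, plus strand: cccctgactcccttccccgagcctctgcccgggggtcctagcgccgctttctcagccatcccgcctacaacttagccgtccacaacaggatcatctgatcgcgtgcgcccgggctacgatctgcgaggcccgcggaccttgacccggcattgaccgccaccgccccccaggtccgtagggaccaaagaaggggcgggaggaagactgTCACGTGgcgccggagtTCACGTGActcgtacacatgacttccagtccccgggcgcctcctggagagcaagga
In CTSA the word was matched 3 times, on both strands.

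Of 57 oxidative phosphorylation genes 32 rose (56.1%) and 5 fell, with a median of 0.25. Far fewer rose when the vehicle array of either line was left out, a share near that of all genes in the same fits. Without any 1 of the 4 arrays, without the line as a block or with no filter 3 fell. The subunit with the largest rise, NDUFB5, changed by 0.55. The coactivator PPARGC1B went against them, from 7.10 and 7.17 to 5.30 and 5.41 (log2 change -1.77 (SE 0.12, limma adjusted p = 0.00046)), and the mitochondrial transcription factor TFAM fell by 0.61. Glycolysis genes were even, 10 higher (34.5%) and 9 lower (31%) of 29. The glucose transporters SLC2A3 and SLC2A1 and the hexokinase HK2 fell (-2.22, -1.39 and -1.30), and PDK4, which blocks pyruvate entry into mitochondria, rose by 1.51. TXNIP, which the glucose sensor MondoA induces and which restrains glucose uptake, read 8.94 and 7.88 under vehicle, 10.48 and 10.34 at 6 h and 11.04 and 10.99 at 18 h (log2 change 2.60 (SE 0.25, limma adjusted p = 0.0011)). The lines were apart in TXNIP under vehicle and level at 18 h. Its relative ARRDC3 rose by 1.95. Sterol and fatty acid genes were 8 higher and 8 lower of 29, 4 and 4 without the vehicle array of the knockout line and 5 higher with the mean of all probe sets, with the exporter ABCA1 at 1.34 and HMGCS1, an early enzyme of cholesterol synthesis, at -0.87.

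Genes of the primary cilium, an organelle that cells build when they leave the cycle, rose more often than they fell. Of 44 tested 29 were higher (65.9%, background 28.1%) and 3 lower, with a median of 0.37 and, at 6 h, of 0.13. Without the vehicle array of the rescued line 17 rose, and without the 18 h array of the rescued line 5 fell. BBS2, a subunit of the BBSome, read 7.39 and 7.28 under vehicle, 7.59 and 7.62 at 6 h and 8.80 and 8.60 at 18 h (log2 change 1.36 (SE 0.08, limma adjusted p = 0.00033)). IFT81 and IFT74, partners in intraflagellar transport, rose by 1.14 and 1.09. In BBS2 the 6 h arrays were near vehicle. RPGR, ARL6 and WDR35 fell (-0.94, -0.71 and -0.56) (WDR35 not without the line as a block, limma adjusted p = 0.0879), and the motor subunits KIF3A (0.03) and KIF3B (-0.20) did not pass. KIF3B was called lower with the mean of its probe sets (-0.26, limma adjusted p = 0.0163).

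Clock, apoptosis and p53 genes completed the lists. Of 16 clock genes 7 rose (43.8%, background 28.1%) and 3 fell (18.8%, background 23.3%). The output factor DBP rose by 2.30 (its other probe set gave -0.10) and RORB by 2.64 (3.63 in the knockout and 1.64 in the rescued line), and NPAS2 fell by 1.28. The call of RORB was lost without the line as a block (limma adjusted p = 0.0513). Of 17 BCL2 family genes 8 fell (47.1%) and 5 rose (29.4%). Those lower numbered 5 without the line as a block, and fewer than 8 without the vehicle array of either line. The pro-apoptotic BMF rose by 1.29, the protective MCL1 and BCL2 fell (-1.23 and -0.75), and PMAIP1 (NOXA) fell by 1.27, a call lost without the line as a block (limma adjusted p = 0.062). BCL2L11 (BIM), which ERK signalling is known to restrain, had -0.11 with the knockout and 0.11 with rescue, and did not pass. Of 28 p53 targets 17 rose (60.7%) and 4 fell, with 11 higher without the vehicle array of the rescued line and 2 lower without either array of the knockout line. TP53INP1 rose by 2.83 with its other probe set at -0.05, TP53I3 by 1.25, and the nuclease AEN fell by 1.53. The list of potassium channels had 3 higher (16.7%) and 5 lower (27.8%) of 18, with 3 lower without the line as a block. Fewer were also lower without either vehicle array or without the 18 h array of the rescued line. The largest rise in it was that of KCTD12 (1.89), which is an auxiliary receptor subunit and not itself a channel.

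**Figure D3:**
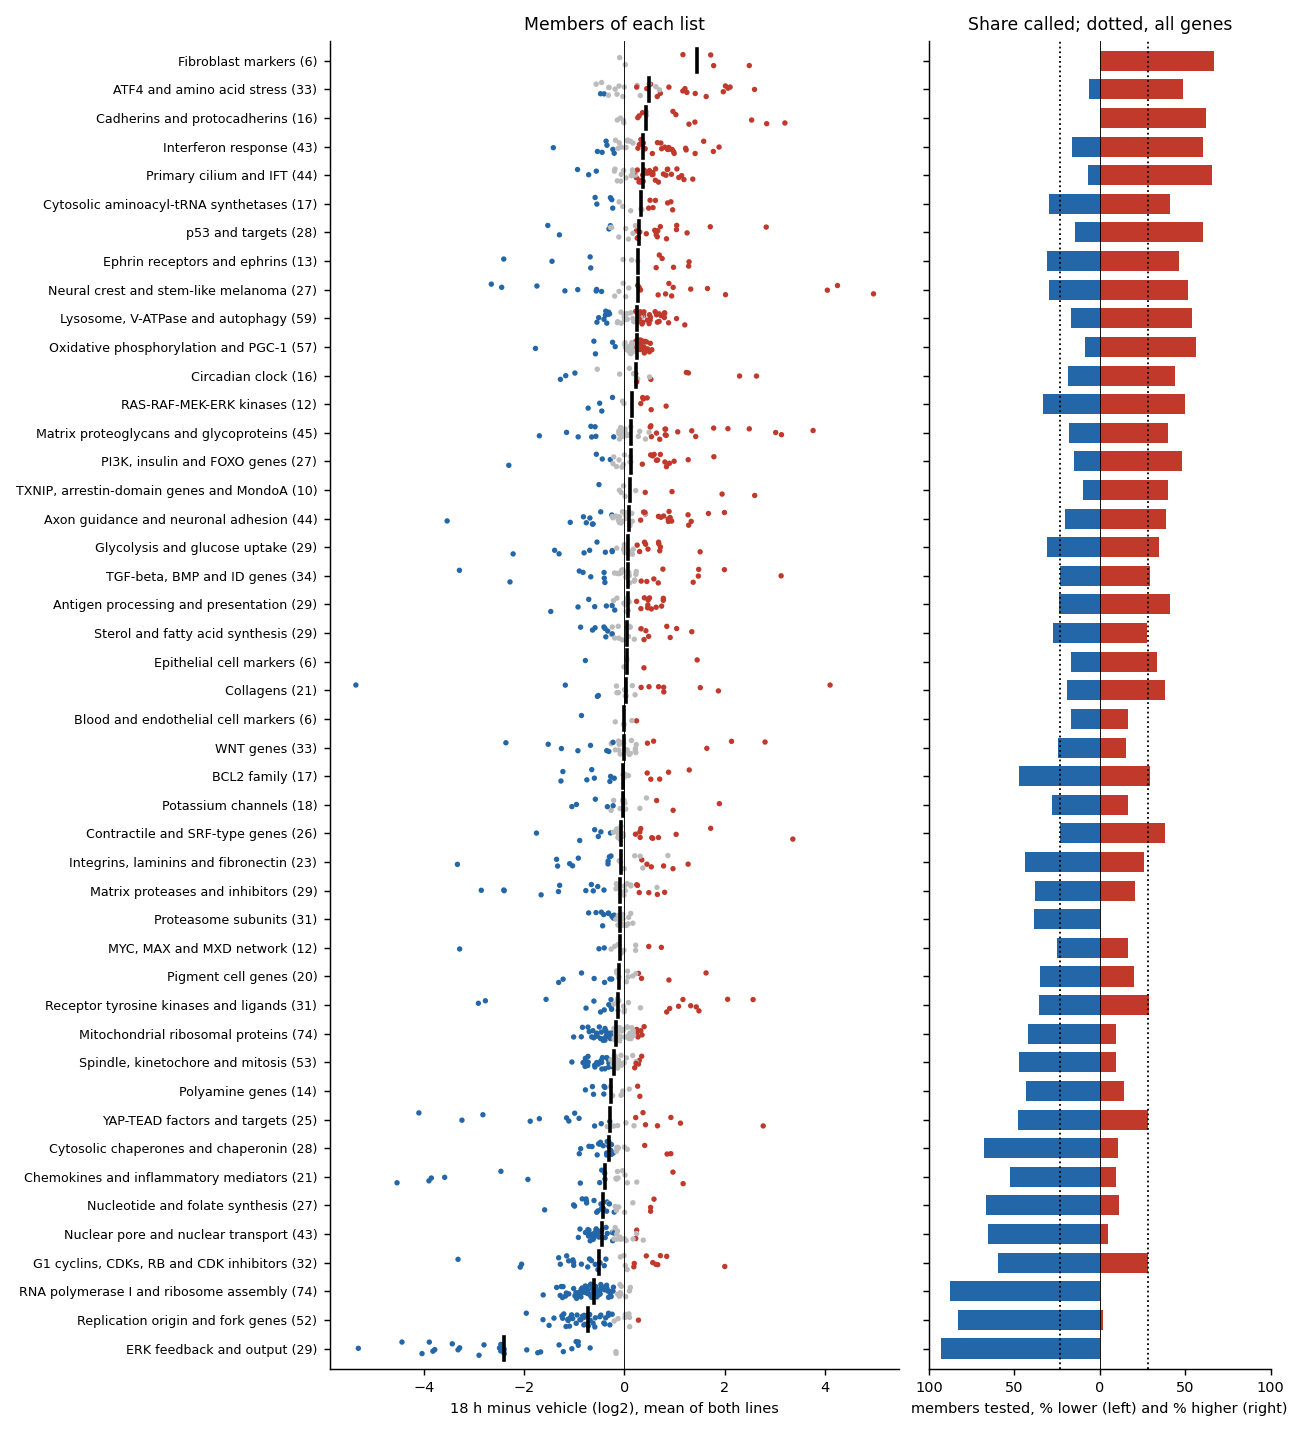
Members of 46 gene lists at 18 h against vehicle: on the left each point is the change of 1 gene in log2 units (mean of both lines), red when called higher, blue when called lower, grey when not called, and the black tick is the list median; on the right bars give the percent of members tested that were lower and higher, with dotted lines at the shares of all genes, 23.3% and 28.1%. The number of members tested is in brackets, and ERK output, replication and ribosome assembly lie far to the left, while the cilium, interferon and cadherin lists exceed the background on the right.

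Timing was compared with the 6 h arrays of the same lines. Between 6 h and 18 h 2568 genes were higher (19% of those tested) and 2019 lower (14.9%) by limma. The comparisons of 6 h and of 18 h against vehicle share the vehicle arrays, so their values are set side by side with no measure of likeness. Of the genes chosen for a 2-fold change in each line at 18 h, the higher ones had a median of 0.52 at 6 h and 1.45 at 18 h and the lower ones -0.77 and -1.42, where the choice by the 18 h value raises the later figure. For lists chosen by function, ERK output had medians of -2.06 and -2.41, chemokines -0.35 and -0.39, ribosome assembly -0.13 and -0.60, and mitosis 0.06 and -0.20. Lower at 18 h than at 6 h were 60 of 74 ribosome assembly genes and 10 of 29 ERK output genes. Higher at 18 h than at 6 h were 24 of 43 interferon genes and 21 of 44 cilium genes, against the background of 19%.

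**Figure D4:**
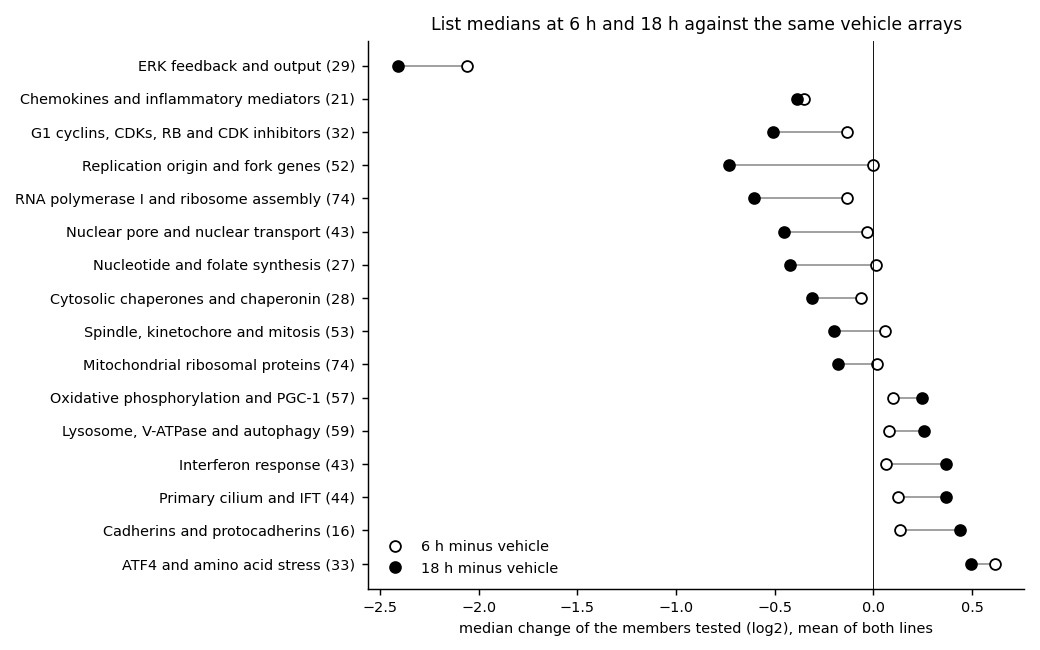
Median change of 16 lists at 6 h (open circles) and 18 h (filled circles) against the same vehicle arrays, in log2 units over the members tested, whose number is in brackets. ERK output and chemokines were already low at 6 h and the ATF4 list already high, whereas the replication list moved from near 0 to -0.73.

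AP-1 and ETS words were searched in the genes with the largest changes, since FOSL1 and the ETS factors fell. The AP-1 word TGANTCA was present in 7.72% of 272 windows of genes lower by at least 1 log2 unit in each line and in 15.1% of the 93 lower by at least 1.5, against 4.93% for all genes tested and 7.76% for all windows. Among genes higher by at least 1 it was in 5.52%. In the ERK output list 2 of 17 windows held it and 0 of 17 held the ETS type word CCGGAAG. Of the 2 genes with the AP-1 word 1 was lower (median of the 2, -1.28). Of the 15 without it 14 were lower (median -2.4). PLAUR, the gene with the word that fell, is shown.
PLAUR, chr19:43670140-43670419, minus strand: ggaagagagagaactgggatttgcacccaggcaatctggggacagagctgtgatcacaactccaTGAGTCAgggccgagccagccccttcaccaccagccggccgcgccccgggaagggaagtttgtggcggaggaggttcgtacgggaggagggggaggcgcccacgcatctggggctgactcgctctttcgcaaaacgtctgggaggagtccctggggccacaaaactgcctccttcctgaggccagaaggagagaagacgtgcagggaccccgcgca
CCGGAAG was in 8.39% of 417 windows of genes higher by at least 1 log2 unit in each line and in 11.4% of those lower, against 18.3% for all genes tested, and the difference was not tested. The E-box CACGTG was in 16.2% of the windows of genes lower by at least 1, but in 10.8% of those lower by at least 1.5, where the background is 10.1%.

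**Figure D5:**
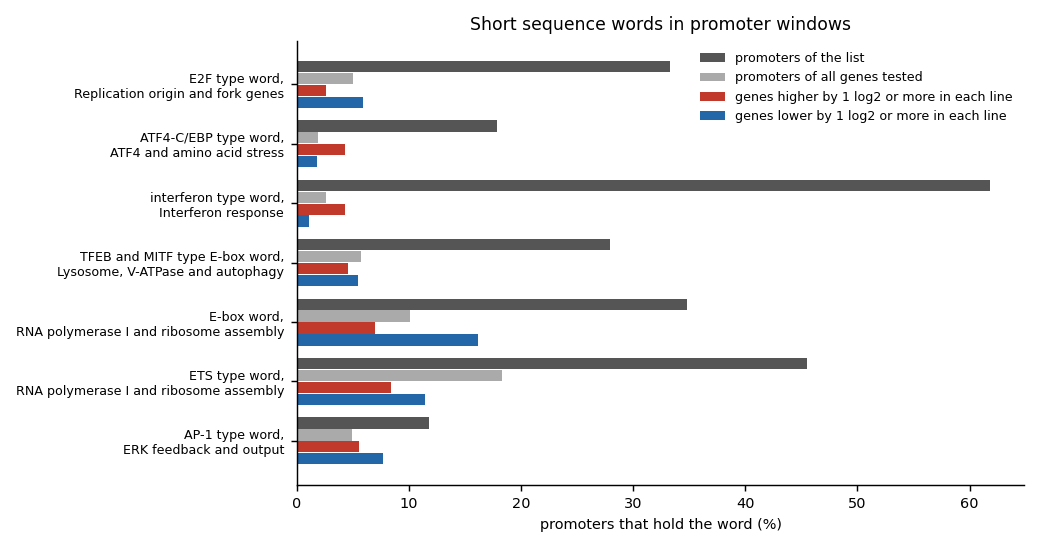
Percent of 300-base promoter windows that hold a short word, for the list named beside each word (dark grey), all genes tested (light grey), and genes higher (red) or lower (blue) by at least 1 log2 unit in each line. For the pairings of word and list drawn here the share was higher in the list than in all genes tested. It ranged from 11.8% (2 of 17 windows) against 4.93% for AP-1 in ERK output to 61.8% against 2.64% for the interferon word. Not drawn is the ETS type word in ERK output, held by 0 of 17 windows against 18.3% for all genes tested.

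The genes in which the lines departed most from each other are given as values. With 1 array per combination the difference between their responses has no replicate and was not tested. The gap was widest, among genes with a mean of at least 6, in NUPR1, which rose by 1.56 in the knockout and 3.63 in the rescued line. PCDH7 changed by 3.63 and 2.05, the Krüppel-like factor KLF4 by -2.60 and -1.08, and OGFRL1 by 2.68 and 1.26. The secretory chaperone SCG5 read 7.54 and 7.35 under vehicle and 7.69 and 9.47 at 18 h, so the rescued 18 h array alone was high. The protease ADAMTS1 read 6.13 and 6.03 under vehicle and 7.58 and 5.88 at 18 h, with the knockout 18 h array alone high. Neither was called (limma adjusted p = 0.094 for SCG5 and 0.21 for ADAMTS1), but SCG5 was without either array of the knockout line (0.0379 and 0.00441) and ADAMTS1 without the 18 h array of the rescued line (0.00445). The call of KLF4 was lost without the line as a block (0.129) and without the 18 h array of the knockout line (limma adjusted p = 0.0751), and that of OGFRL1 without its vehicle array (0.0539).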

How the data were processed

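Total RNA of A375 cells was measured as biotin-labelled cRNA on 6 Affymetrix arrays, 1 per combination of line and treatment. The authors deposited linear intensities; the submitters' processing notes name RMA and affy, with versions not given in the sources used here. As usually run, RMA includes quantile normalization, which removes differences in overall RNA amount, and large changes near either end of the scale are understated. Here log2 was taken. Of 54675 probe sets, 62 are controls and were set aside, 41091 have a single gene symbol in GEO's annotation of the platform, 1801 several and 11721 none here. Symbols were checked against RefSeq's GRCh38.p14 table (41037 matched, 54 kept the annotation's). A gene was represented by its single-gene probe set with the highest mean, and 13506 of 19775 genes with a mean of at least 5 were tested.

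Line and treatment were fitted as additive terms to the 6 arrays with limma 3.58.1 in R 4.3.3 (moderated by eBayes, with 2 residual and 3.19 prior degrees of freedom), which gave 18 h minus vehicle and 18 h minus 6 h, with Benjamini-Hochberg adjustment over all genes and a threshold of 0.05. The fit was also run on simulated data with few changed genes and no difference between the lines. That setting is unlike these arrays, so it lends the calls no support. The line enters as the block that pairs arrays of the same line, a pairing that comes from the labels. Lists are described by counts and medians, without a set test. The members, the 46 lists and the rules were chosen with earlier results of these data known. Genes named are the 30 highest and 30 lowest mean changes past the threshold with at least 1 log2 unit in each line (predicted loci left out), up to 5 called members per list with the largest change, role-defining kinases and regulators, EIF4B, and the 6 genes whose lines differed most. Genes named to show members that stayed, opposed their list or marked a cell type were chosen after their values were seen. Motif words were searched in RefSeq promoter windows. Alternatives changed the arrays, the block, the filter, the probe set, the centring, an offset of 16, a variance trend and a required size. Some members of the lists are not reported here.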

Additional observations from a re-analysis of the deposited data

Results flagged for a closer look

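In 8 of the genes named the lines moved in opposite directions between vehicle and 18 h, which was not tested, since each line has 1 array per treatment, and none of these genes was called. The response of the knockout line minus that of the rescued line was 1.60 for ADAMTS1, 0.33 for SOX10, 0.28 for PMEL, 0.17 for RB1, -0.12 for ARAF, -0.23 for BCL2L11, -1.10 for TRIB3 and -1.35 for GDF15. The SD of this difference over all genes was 0.225.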

How the results depend on the processing

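The counts of 3797 higher and 3150 lower genes stayed within 1.5 times under 8 of 9 alternatives that kept all the arrays of the comparison; testing for a change beyond 0.5 log2 units left 895 higher and 663 lower. Leaving out 1 array gave 2464 to 3462 higher and 1846 to 2890 lower genes, with the lowest counts without the vehicle array of the knockout line. Without the replicate block of the line 2997 were higher and 2488 lower, and of the 278 genes named that were called 265 remained called. Of those 278, 277 remained on the 4 arrays alone, 215 beyond 0.5 log2 units and 269 without the vehicle array of the knockout line. With the mean of all probe sets RFC5 at 18 h changed sign (-0.387), as did the uncalled RB1 (-0.0563) and BCL2L11 (0.134), and with an offset of 16 GDF15 at 18 h was 0.0108. Leaving out 1 array turned the sign of 9 uncalled genes at 18 h, with ranges of -0.0693 to 1.37 for ADAMTS1, -0.0560 to 0.0391 for ARAF, -0.0335 to 0.144 for RB1, -0.147 to 0.145 for BCL2L11, -0.560 to 0.556 for GDF15, -0.265 to 0.0335 for PMEL, -0.255 to 0.0376 for SOX10, -0.239 to 0.0496 for THY1 and -0.605 to 0.390 for TRIB3. The cause was not tested. Leaving out 1 array also brought uncalled genes past the threshold (limma adjusted p): PAX3 at 18 h (0.0343) without the 18 h array of the knockout line, TRIB3 at 18 h (0.0171) without the rescued vehicle array, and IGF1R (0.0248), KIF3B (0.0475), SPRY1 (0.0431) and YAP1 (0.0399) at 18 h without the 18 h array of the rescued line. With the mean of all probe sets SPRY1, EGFR, IGF1R, ARAF, KIF3B, SOX10 and UBTF were called lower and COL1A1 higher, and with a variance trend CDK1, FBL and NPM1 were called lower as was KIF3B, and SCG5, EIF4B and YAP1 higher. With 1 array per combination and 2 residual degrees of freedom, SEs of single genes lean on the prior.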
